A study of Mus musculus with 2 samples.

Results

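The gene set described here is made of 49 genes of 3 chromatin systems: the Polycomb repressive complexes, the trithorax-type methyltransferases of histone H3 lysine 4, and the enzymes and readers of DNA methylation. The members were listed by symbol, with earlier results of these data known. Each was found once among the 43346 genes of the deposited tables. RNA came from the midbrain of B6NCrl mouse embryos at embryonic day 10.5, with both sexes pooled and no genotype or treatment given. There was 1 group of 2 libraries, named in the labels as biological replicates: replicate 1 from a pool of 69 embryos and replicate 2 from a pool of 51. Each library started from 10 ng of RNA longer than 200 nt. No condition was compared, so the results are levels, transcript forms and the spread between the 2 libraries. A difference between the libraries, 1 on each side, is tested against counting error only and says nothing of a condition.

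Polycomb proteins keep developmental genes silent. Polycomb repressive complex 2 (PRC2) methylates lysine 27 of histone H3, and Polycomb repressive complex 1 (PRC1) ubiquitinates histone H2A and compacts chromatin. KMT2 enzymes, with a shared core of small subunits, methylate lysine 4 of histone H3 at promoters and enhancers and work against that silencing. DNA methyltransferases place 5-methylcytosine at CpG dinucleotides, UHRF1 brings the maintenance enzyme to newly copied DNA, TET dioxygenases oxidise the mark and MBD proteins bind to methylated DNA. In the embryonic brain these systems are known for their part in the order in which progenitors give rise to neurons and then glia.

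Gene rows held 45531592 counts in replicate 1 and 50477623 in replicate 2. Of the midbrain markers, Otx2 (138 and 123 TPM, a level per length of transcript scaled to the same total in each library), Fgf8 (21.7 and 24.7 TPM), Wnt1 (18.6 and 20.4 TPM) and En1 (4.74 and 4.46 TPM) were present, while En2 and Pax2 were below 1 TPM in both libraries. The 10 neural progenitor markers summed to 2815 TPM in replicate 1 and 2327 TPM in replicate 2. The 12 neuron markers summed to 1376 TPM in replicate 1 and 854 TPM in replicate 2, the 10 markers of dividing cells to 2993 and 3283 TPM, and the 7 red cell markers to 13201 and 15176 TPM. Markers of head mesenchyme (830 and 582 TPM over 8 genes), endothelium (165 and 178 TPM over 7), macrophages (76.5 and 52.0 TPM over 6) and surface ectoderm (39.6 and 52.4 TPM over 5) were also present. Tissue RNA was measured in bulk, so fewer cells of a type and less RNA per cell cannot be told apart for any member.

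Nearly the whole set was expressed. At a threshold of 1 TPM in both libraries 48 of 49 members (98.0%) were detected, against 12477 of 21474 protein-coding genes (58.1%). The median of the mean TPM was 22.9 over the detected members and 20.7 over the detected protein-coding genes. Their levels spanned a wide range: 36 members had a mean of at least 10 TPM and 10 of at least 100 TPM. Of the 21474 protein-coding genes, 8479 and 1717 reached these levels.

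**Figure D1:**
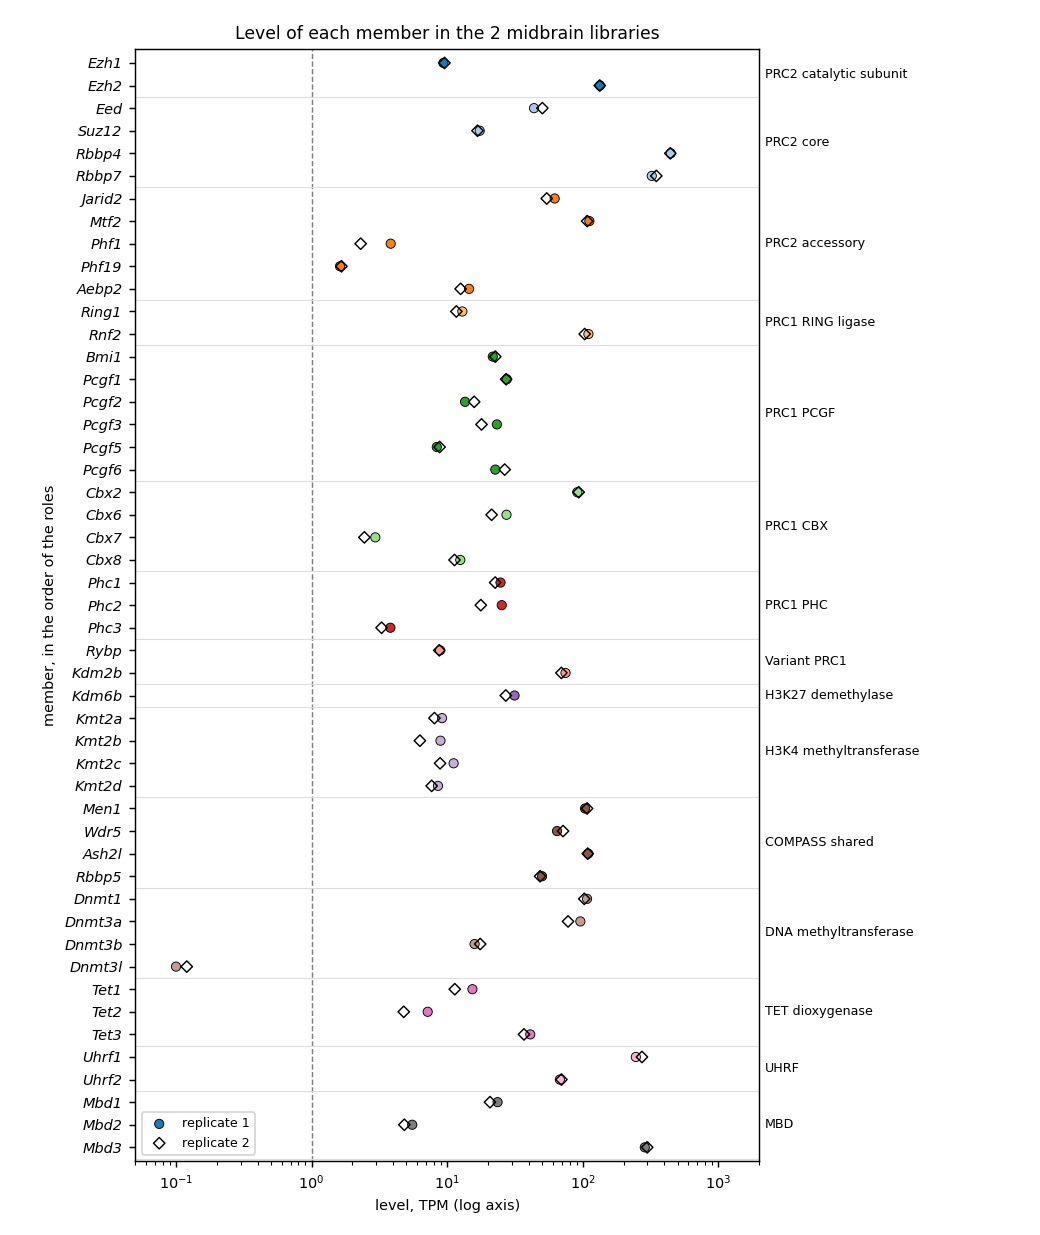
Level of each of the 49 members in TPM on a log axis, with a filled circle for replicate 1 and an open diamond for replicate 2, ordered by role; the dashed line marks 1 TPM. Dnmt3l is the only member left of the line, and Rbbp4, Rbbp7, Mbd3 and Uhrf1 lie farthest to the right.

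Within PRC2, the RNA of the catalytic subunits was mainly that of Ezh2, at 134 and 133 TPM in replicates 1 and 2. Its paralog Ezh1 stood at 9.38 and 9.55 TPM. Ezh2 is the form known for dividing cells and Ezh1 for cells that have left the cycle. The libraries nearly coincided for both genes, and the Ezh2 level was 14.1 times that of Ezh1 (log2 ratio 3.82 ± 0.02, SD, n = 2). Among the core subunits, Rbbp4 and Rbbp7, histone chaperones shared with several other complexes, had the highest gene-level TPM of the members, at 445 and 442 TPM for Rbbp4 and 323 and 348 TPM for Rbbp7. On transcripts that encode a complete protein Rbbp4 had 174 and 158 TPM, below Rbbp7, Uhrf1 and Mbd3. Eed, which reads the methylated lysine and stimulates the enzyme, had 43.7 and 50.3 TPM. Suz12, the scaffold of the complex, had 17.4 and 16.7 TPM, the lowest of the core subunits.

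The accessory subunits, which sort PRC2 into alternative forms and direct it to its sites, differed most. Mtf2, a Polycomb-like protein that binds unmethylated CpG-rich DNA, had 112 and 108 TPM. Its paralogs Phf1 (3.83 and 2.30 TPM) and Phf19 (1.62 and 1.66 TPM) were among the lowest members. Jarid2, which defines the other main form together with Aebp2, stood at 62.0 and 54.2 TPM and Aebp2 at 14.5 and 12.6 TPM. The gene-level order therefore ran from Mtf2 through Jarid2 and Aebp2 to Phf1 and Phf19 in both libraries. On transcripts that encode a complete protein the top of this order turned, with Jarid2 at 56.9 and 50.7 TPM above Mtf2 at 14.97 and 13.9 TPM.

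Of the PRC1 RING ligase genes Rnf2 had the higher RNA level, at 110.02 and 103 TPM against 12.9 and 11.7 TPM for Ring1. The ratio was 8.67 (log2 3.12 ± 0.04, SD, n = 2). The 6 PCGF genes, each of which defines a type of PRC1, were close together, from Pcgf5 at 8.38 and 8.79 TPM to Pcgf1 at 27.5 and 27.2 TPM. Bmi1 had 21.7 and 22.6 TPM and Pcgf2, its paralog and alternative in canonical PRC1, 13.5 and 15.8 TPM. Pcgf6 (22.6 and 26.5 TPM) was above Bmi1 in both libraries, while Pcgf3 (23.3 and 17.9 TPM) was above both in replicate 1 and below both in replicate 2.

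Of the CBX genes, whose products bind methylated lysine 27, Cbx2 led with 91.1 and 93.3 TPM. Cbx6 followed at 27.4 and 21.3 TPM, Cbx8 at 12.5 and 11.3 TPM and Cbx7 at 2.95 and 2.45 TPM. This order held in both libraries, and Cbx2 was 34.3 times Cbx7 (log2 5.10 ± 0.21, SD, n = 2). The size of this ratio depended on the low level of Cbx7. With posterior mean TPM the log2 ratio was 4.57. The deposited bounds of Cbx7 were 3.03 to 5.70 TPM in replicate 1, above its TPM there, and 2.40 to 4.91 TPM in replicate 2. The Polyhomeotic genes, whose proteins polymerise and cluster canonical PRC1, had 24.7 and 22.6 TPM for Phc1, 25.3 and 17.7 TPM for Phc2 and 3.81 and 3.28 TPM for Phc3. Phc1 and Phc2 were not separable by these values. For variant PRC1, Rybp, which takes the place of a CBX protein, had 8.87 and 8.74 TPM, and Kdm2b, which brings the Pcgf1 form to unmethylated CpG islands, had 74.6 and 69.5 TPM.

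Kdm6b, a demethylase that removes the PRC2 mark, stood at 31.4 and 27.1 TPM. The 4 KMT2 methyltransferases were low, at 9.16 and 8.05 TPM for Kmt2a, 8.92 and 6.29 TPM for Kmt2b, 11.2 and 8.86 TPM for Kmt2c and 8.55 and 7.68 TPM for Kmt2d. On complete coding transcripts they spread more widely, from 8.31 and 7.68 TPM for Kmt2d and 6.38 and 5.51 TPM for Kmt2a to 2.86 and 2.36 TPM for Kmt2c and 1.28 and 1.03 TPM for Kmt2b. Their shared partners were higher, with Ash2l at 109.6 and 108.8 TPM, Wdr5 at 64.6 and 71.5 TPM and Rbbp5 at 50.1 and 48.4 TPM. So was Men1, which tethers Kmt2a and Kmt2b, at 104 and 108 TPM. Each of these 4 genes exceeded each of the 4 enzymes in both libraries.

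Among the DNA methyltransferases, Dnmt1, the maintenance enzyme, had 107 and 103 TPM, and Dnmt3a, which methylates DNA de novo, had 95.95 and 77.8 TPM. Dnmt3b, the other de novo enzyme, stood at 15.9 and 17.5 TPM. Dnmt3l, a cofactor without catalytic activity that is known from germ cells, had 3 and 4 counts (0.10 and 0.12 TPM) and was the only member not detected. With so few counts its level was poorly set, and the deposited bounds were 0.16 to 1.30 TPM in replicate 1 and 0.17 to 1.18 TPM in replicate 2. Of the TET genes Tet3 was highest at 41.0 and 36.8 TPM, then Tet1 at 15.4 and 11.4 TPM and Tet2 at 7.18 and 4.78 TPM.

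Uhrf1 had 246 and 273 TPM and its paralog Uhrf2 67.8 and 69.6 TPM. Mbd3, a subunit of the NuRD remodelling complex whose mammalian protein binds methylated DNA poorly, had 287 and 299 TPM. Mbd1 (23.5 and 20.7 TPM) and Mbd2 (5.52 and 4.83 TPM), which do bind it, were lower, and Mbd3 was 56.7 times Mbd2 (log2 5.82 ± 0.18, SD, n = 2).

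Several members have more than one annotated start, and the deposited transcript tables assigned most of their coding RNA to a start far inside the gene. The starts carry the finding for Dnmt3a, Dnmt1, Kdm2b and Phc2, so the bases just before them are shown. Each line gives the sequence 5′ to 3′ on the gene's strand, up to 200 bases that end before the first annotated exon base, from RefSeq promoter windows on GRCm38.p6, with CpG dinucleotides in capitals.
Dnmt3a first start, chr12:3806780-3806979, plus strand: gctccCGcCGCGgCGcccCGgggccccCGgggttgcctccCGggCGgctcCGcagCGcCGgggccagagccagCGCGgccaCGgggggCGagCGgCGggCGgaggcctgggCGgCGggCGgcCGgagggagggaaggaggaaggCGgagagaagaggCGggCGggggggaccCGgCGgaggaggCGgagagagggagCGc
Dnmt3a inner start, chr12:3891528-3891727, plus strand: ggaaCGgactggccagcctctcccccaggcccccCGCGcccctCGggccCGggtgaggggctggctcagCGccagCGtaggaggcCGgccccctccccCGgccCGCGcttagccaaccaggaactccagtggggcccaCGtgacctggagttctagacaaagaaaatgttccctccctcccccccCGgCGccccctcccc
Dnmt1 first start, chr9:20959889-20960088, minus strand: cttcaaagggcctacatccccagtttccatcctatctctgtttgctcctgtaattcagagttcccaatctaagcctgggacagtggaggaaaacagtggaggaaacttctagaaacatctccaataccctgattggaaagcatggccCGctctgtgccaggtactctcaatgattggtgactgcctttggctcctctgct
Dnmt1 inner start, chr9:20952980-20953179, minus strand: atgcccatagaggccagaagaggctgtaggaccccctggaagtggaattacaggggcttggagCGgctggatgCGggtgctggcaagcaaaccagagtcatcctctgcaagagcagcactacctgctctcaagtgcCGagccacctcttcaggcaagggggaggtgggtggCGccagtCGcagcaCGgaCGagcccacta
Kdm2b inner start, chr5:122900368-122900567, minus strand: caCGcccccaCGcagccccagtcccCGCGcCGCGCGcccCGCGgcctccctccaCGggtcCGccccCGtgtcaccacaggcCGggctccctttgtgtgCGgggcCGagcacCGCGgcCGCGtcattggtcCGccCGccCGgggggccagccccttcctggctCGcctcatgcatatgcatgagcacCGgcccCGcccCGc
Phc2 first start, chr4:128654502-128654701, plus strand: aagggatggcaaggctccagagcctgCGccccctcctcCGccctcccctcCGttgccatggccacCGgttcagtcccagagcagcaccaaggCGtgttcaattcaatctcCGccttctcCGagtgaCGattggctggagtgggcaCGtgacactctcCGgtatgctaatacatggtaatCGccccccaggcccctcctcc
Phc2 innermost start, chr4:128727371-128727570, plus strand: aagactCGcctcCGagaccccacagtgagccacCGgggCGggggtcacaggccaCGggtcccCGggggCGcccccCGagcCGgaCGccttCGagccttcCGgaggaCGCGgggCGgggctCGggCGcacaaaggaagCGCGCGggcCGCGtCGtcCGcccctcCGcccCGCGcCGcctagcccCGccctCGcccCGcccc

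These stretches differ in CpG number. The Dnmt1 first start had 1 CpG in its 200 bases and the inner start 7, while the Dnmt3a starts had 29 and 14, the inner Kdm2b start 26 and the Phc2 starts 11 and 31. In the whole RefSeq windows, from 250 bases before to 50 after a start, the median was 23 CpG over 61 windows of 41 members and 7 over all 32851 windows. The search was for the letters CG, which read the same on both strands, and 83.6% of the member windows and 43.5% of all windows held at least 10. The Dnmt1 first start, with 2 CpG in its window, and the middle Phc2 start, with 2, were among the exceptions. Of the windows at the inner Dnmt1 start, that of Dnmt1-201 held 12 CpG. A window further downstream, that of Dnmt1-203 (1.63 and 1.38 TPM in replicates 1 and 2), held 33. No entry was used for Pcgf1, Cbx2, Rybp, Kdm6b, Kmt2b, Ash2l, Mbd1 and Mbd2. Member windows on chromosome 18, which holds Mbd1 and Mbd2, were left out, and no such exclusion was applied to the set of all windows. That set was also not limited to expressed genes, whereas nearly all members were expressed, so it is no matched background. Close starts of a gene, such as those of Men1 and Kdm2b, counted as separate windows.

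Dnmt3a (chr12:3806007-3914443) was read mostly from the inner start, 84698 bases downstream of the first. Transcripts that are annotated as complete protein-coding forms and begin there held 63.7 and 53.7 TPM in replicates 1 and 2, which was 77.4% and 80.2% of the complete coding TPM of the gene. They encode 689 residues and lack residues 1 to 219 of the 908-residue protein made from the first start, which had 18.6 and 13.3 TPM. The short protein is the form known as DNMT3A2. The 2 leading models are of unequal length, 2328 nt for the short form and 9685 nt for the long one, and by expected counts the long model had more (5229 and 4240 against 3950 and 3838).

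For Dnmt1 (chr9:20907209-20959888) the inner start, 6909 bases downstream of the first, also led. The Dnmt1-201 model, the somatic form of 1620 residues, had 70.1 and 69.1 TPM. Dnmt1-202, from the first start, had 35.7 and 32.1 TPM (33.3% and 31.3% of the complete coding TPM). It encodes 1501 residues, without residues 1 to 118, and its start is the one known from oocytes. The models share nearly all of their sequence, with 156 exonic bases found only in Dnmt1-202 and 275 only in Dnmt1-201. The deposited credible interval of Dnmt1-202 was 31.1 to 39.4 TPM in replicate 1 and 27.6 to 34.9 TPM in replicate 2. Of the 5 germ cell markers, Nanos3 had 3.13 and 1.75 TPM, Ddx4 0.47 TPM in both libraries, and Dazl, Dppa3 and Pou5f1 at most 0.12 TPM; their part in the Dnmt1-202 level was not tested.

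Kdm2b (chr5:122870665-122989823) was assigned mainly to a start 89468 bases inside the gene, with 61.0 and 53.7 TPM, or 85.2% and 83.0%. That transcript encodes 776 residues and lacks residues 1 to 551 of the 1309-residue form, the part that holds the JmjC demethylase domain. The CXXC zinc finger that binds unmethylated CpG lies in the part both share. Longer forms had 7.49 and 6.57 TPM from one upstream start and 3.08 and 4.39 TPM from another. Exons of Kdm2b share 627 bases with Rnf34 on the other strand (74.5 and 71.2 TPM), and whether the counting used strand is unknown.

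In Phc2 (chr4:128654702-128752881) the innermost start held 87.0% and 90.3%, at 17.5 and 12.8 TPM, and gives a protein of 323 residues without residues 1 to 527 of the 850-residue form. Tet3 was split: the 1668-residue form, without residues 1 to 135, had 10.6 and 8.85 TPM (58.2% and 59.3%) and the 1803-residue form from the upstream start, which includes a CXXC domain, 7.62 and 6.08 TPM. In Aebp2 the 274-residue form, without residues 1 to 222 of the 496-residue one, held 67.5% and 76.8%. Uhrf1 transcripts from the second start held 60.2% and 59.2% and those from the first the rest, with the same 2 protein lengths of 774 and 782 residues from each. Bmi1 encodes the same 324 residues from both of its starts, and the first held 72.7% and 69.2%. The preferred start was the same in both libraries for all of these genes.

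**Figure D2:**
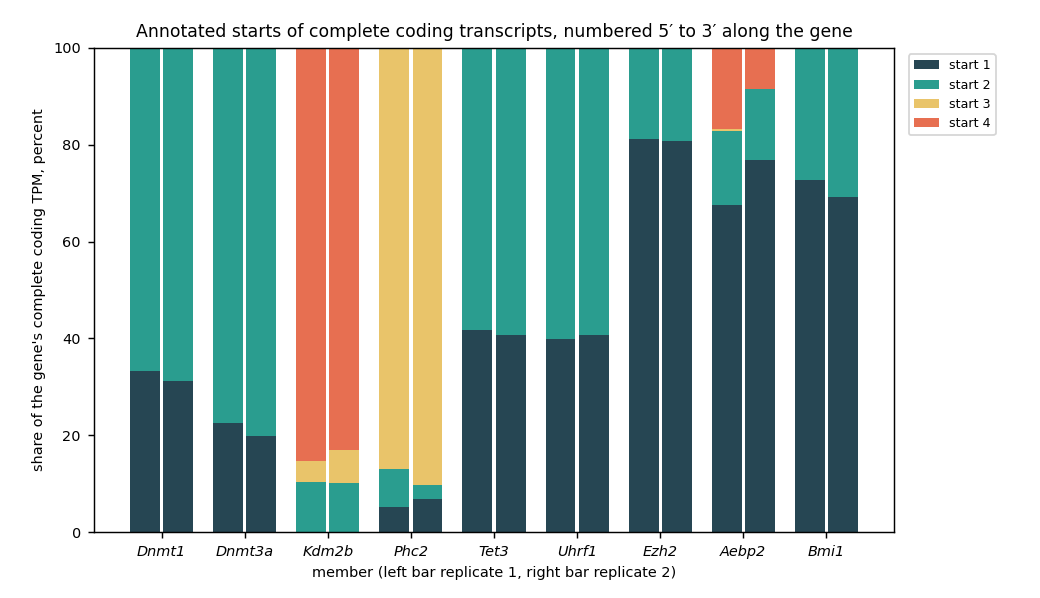
Share of each gene's complete coding TPM, in percent, by annotated start numbered from the 5′ end of the gene, with the left bar for replicate 1 and the right bar for replicate 2. Dnmt3a, Kdm2b and Phc2 are dominated by an inner start in both libraries, and Dnmt1 shows about a 67% to 33% split.

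Splicing also divided several members. Dnmt3b (chr2:153649450-153687730) was assigned mostly to models of 776 residues, 70.3% of its complete coding TPM in replicate 1 and 54.99% in replicate 2. These lack residues 364 to 382 and 752 to 813 of the 860-residue form, the second stretch within the catalytic domain. The 860-residue form itself held 26.96% and 27.6%. A form of 839 residues that lacks only the first stretch and 1 residue more held 2.73% in replicate 1 and 17.4% in replicate 2, so the libraries disagreed on it. Ezh2 was mostly the 746-residue form (76.1% and 75.2%), and the 704-residue model, at 18.8% and 19.3%, contains no exonic base of its own.

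Mbd3 was mostly the 253-residue form (68.0% and 69.0%), which lacks residues 6 to 36 of the 285-residue protein, a stretch in the methyl-CpG-binding domain. Mbd2 was mostly a 249-residue form (67.2% and 58.3%), which lacks residues 238 to 414 of the full protein. The 158-residue form of Cbx7 held 73.1% and 70.0% of that gene's coding TPM, at levels of 1.71 and 1.45 TPM. Jarid2 had 1 protein length, 1234 residues, and the Jarid2-208 model of 5997 nt held 66.7% and 62.5% of all TPM of the gene.

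The leading forms of Ezh1, Ezh1-202 and Ezh1-203, cannot be told apart. Ezh1-202 had 4.01 TPM in replicate 1 and 0 in replicate 2, and Ezh1-203 had 2.33 and 5.93 TPM. Those models differ by 14 exonic bases, and the deposited intervals of Ezh1-202 (0.21 to 5.70 TPM and 0.29 to 5.48 TPM) overlapped almost entirely. Ezh1-201, which encodes 579 residues and lacks residues 1 to 3 and 558 to 750 of Ezh1-203, was at 12.5% and 10.5% of the gene's TPM. In Suz12 (718 against 741 residues), Pcgf1 (259 against 247 residues), Phc3 and Tet1 the leading transcript likewise differed between the libraries. So it did in 5 of the 43 detected members with at least 2 annotated transcripts. In 16 of the 43 the leading transcript held at least 60% of the gene's TPM in both libraries. Neither count was made over all genes.

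Not all of the TPM lay on transcripts that encode a complete protein. Complete coding transcripts held 75.7% of the members' TPM in each library and 90.5% of their counts. Over the 12477 detected protein-coding genes they held 84.5% and 84.6% of TPM. Under 50% in both libraries was found in 8 of 48 detected members (16.7%) and in 1406 of the 12477 (11.3%). Over 90% was found in 21 members, among them Eed, Rbbp7, Cbx2, Dnmt1, Tet2, Kdm6b and Uhrf1.

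The 8 members under 50% were Rbbp4, Mtf2, Cbx8, Kmt2b, Kmt2c, Tet1, Tet3 and Uhrf2. For Rbbp4 (chr4:129307100-129335370), a 722-nt processed transcript had 260.5 and 275 TPM and the complete coding model of 4407 nt 174 and 158 TPM. By expected counts the order was the reverse, with 22005 and 22919 counts on the coding model and 4764 and 5751 on the short one. Mtf2 (chr5:108065674-108109004) had 50.7 and 45.9 TPM on a 718-nt model whose coding sequence is incomplete, and 15.0 and 13.9 TPM on complete coding models. For Kmt2b (chr7:30568858-30588726) a 571-nt retained intron with 64.9 and 38.3 counts made up 52.5% and 38.4% of the gene's TPM. Tet1 had 4.86 and 4.48 TPM on its complete coding model of 14369 nt, and 6.57 and 3.77 TPM on a processed transcript of 1505 nt. In each of these a short model carried a large share of the TPM on fewer counts than the complete coding model had. By counts, complete coding transcripts held 79.0% and 76.7% for Rbbp4 and 83.9% and 88.6% for Tet1. They stayed a minority for Mtf2 (34.2% and 33.5%) and Kmt2b (37.2% and 34.9%).

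**Figure D3:**
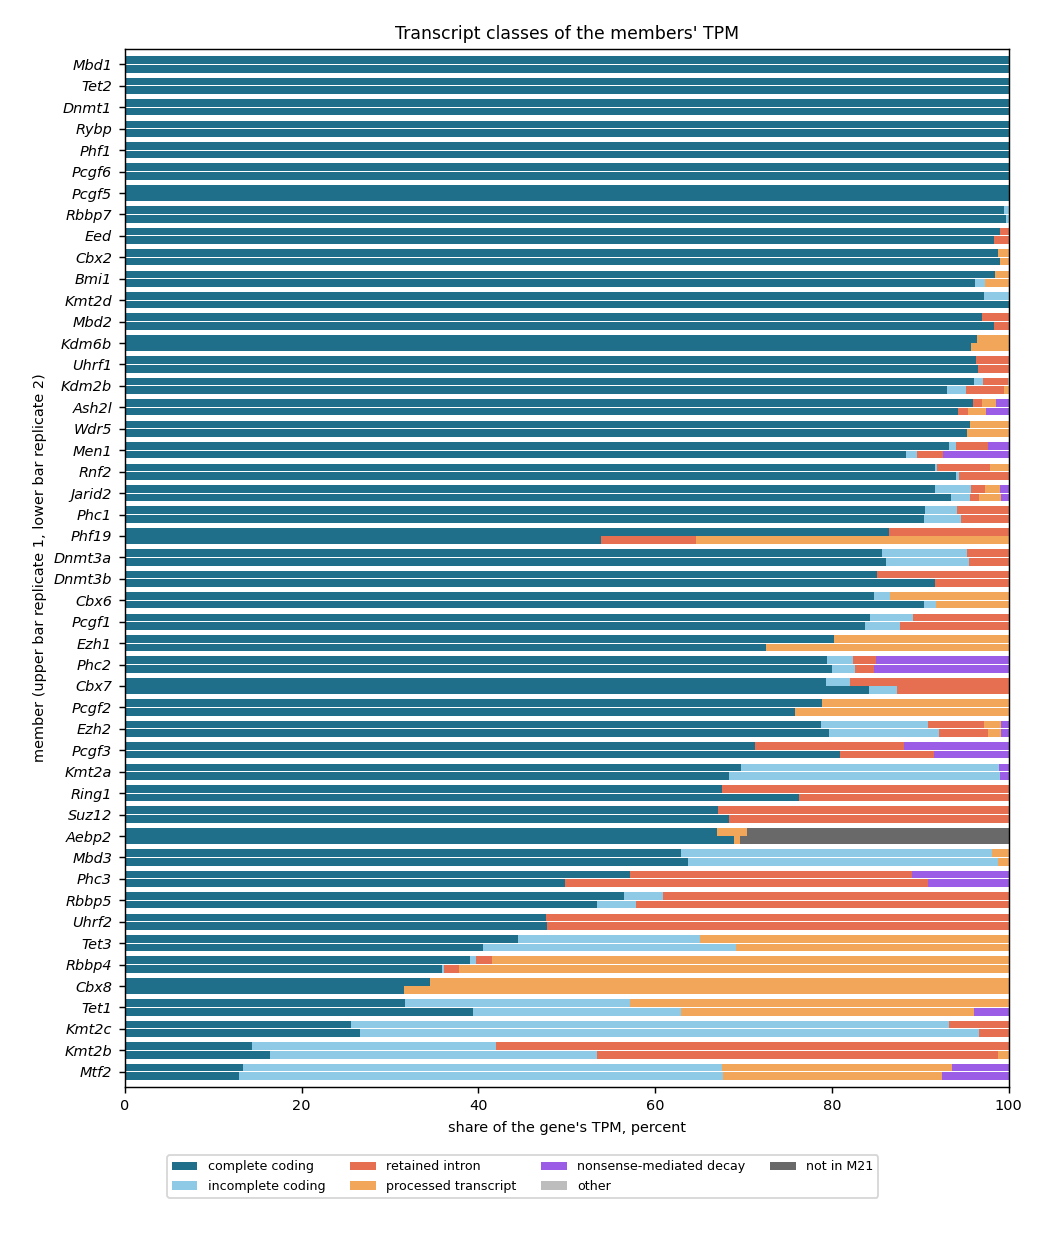
Share of each detected member's TPM, in percent, on each class of annotated transcript, with the upper bar for replicate 1 and the lower for replicate 2. Members run from those with all TPM on complete coding transcripts at the top to Mtf2, with 13.4% and 12.9%, at the bottom.

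The other leading transcripts that held under 60% in a library were complete coding forms of Cbx6, Pcgf2, Phc1, Kmt2a, Men1, Ash2l, Phf19 and Uhrf2 (Uhrf2-201, 47.6% and 47.7%), and a retained intron of Rbbp5 (39.1% and 42.2%). For Cbx8 the leading transcript was a 789-nt processed one (56.2% and 68.5%), for Kmt2c an incomplete coding one (45.2% and 46.2%) and for Tet3 a processed one (35.0% and 30.8%). Ash2l was mostly the 534-residue form (61.4% and 64.1% of coding TPM), without residues 1 to 89 of the 623-residue one. In Aebp2, a 1583-nt model that M21 no longer holds had 29.6% and 30.4% of the gene's TPM.

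Ratios between related members were therefore computed in both ways, within each library. Over all transcripts the first gene of the pair was higher in both libraries in 14 of 15 pairs, the exception being Pcgf2 and Bmi1 (log2 -0.60 ± 0.11, SD, n = 2). On complete coding transcripts alone, an alternative chosen after seeing the data, it was higher in 11 of 15. No test of a ratio is given for 2 libraries; the direction in each library and the SD are given instead.

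Ratios with a firm direction under both measures included Ezh2 over Ezh1 (log2 3.82 ± 0.02 and, on coding transcripts, 3.87 ± 0.09), Rnf2 over Ring1 (3.12 ± 0.04 and 3.49 ± 0.06) and Cbx2 over Cbx7 (5.10 ± 0.21 and 5.37 ± 0.15). Dnmt3a exceeded Dnmt3b by 2.37 ± 0.31 and 2.33 ± 0.38. Uhrf1 exceeded Uhrf2 by 1.92 ± 0.08 and 2.93 ± 0.08, and Jarid2 exceeded Aebp2 by 2.10 ± 0.01 and 2.55 on coding transcripts. Mtf2 exceeded Phf19 by 6.07 ± 0.06 and 3.69 ± 0.38, and Tet3 exceeded Tet2 by 2.73 ± 0.31 and 1.49 ± 0.21. Dnmt1 exceeded Dnmt3a by 0.28 ± 0.17 and 0.50 ± 0.16, a small ratio with the same direction in each library.

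For 3 pairs the direction turned. Rbbp4 over Rbbp7 was 0.40 ± 0.09 on all transcripts and -1.01 ± 0.18 on complete coding ones, Kmt2c over Kmt2d 0.29 ± 0.13 and -1.62 ± 0.12, and Tet1 over Tet2 1.17 ± 0.11 and -0.33 ± 0.33, the last within its own spread. For each of these the turn went with the TPM on short or incomplete models. Kmt2a over Kmt2b kept its direction but moved from 0.20 ± 0.22, within its own spread, to 2.37 ± 0.07.

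**Figure D4:**
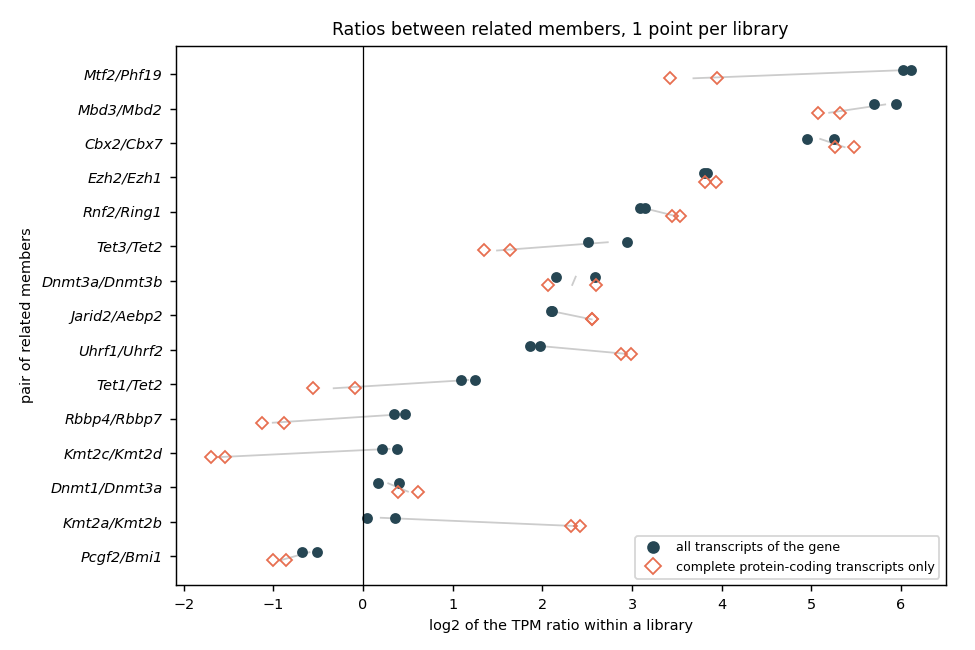
Log2 of the TPM ratio between related members, 1 point per library, with filled circles for all transcripts of the gene and open diamonds for complete protein-coding transcripts only. Rbbp4/Rbbp7, Tet1/Tet2 and Kmt2c/Kmt2d lie on opposite sides of 0 under the 2 measures.

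Between the 2 libraries no tested member differed by as much as 2-fold. A two-sided exact binomial test of expected counts, scaled by the TMM method of edgeR and with Benjamini-Hochberg adjustment over the 14768 genes whose TPM averaged 1 or more, called no member at 2-fold and adjusted p under 0.05, where 2.35% of all genes were called. At 1.5-fold it called 1 of 48, Phf1, against a background of 7.61%. At any size 28 of 48 members had an adjusted p under 0.05 against 53.3% of all genes tested. An unadjusted p under 0.05 was found for 29 of the 48, beside 8457 of the 14768 genes. Of the 28, 14 were higher in replicate 1 and 14 lower, beside 26.4% and 26.9% of all genes. Under plain TPM scaling, which shifts the median log2 ratio of all genes from -0.01 to 0.07, the split was 21 higher and 9 lower of 30, beside 5560 higher and 2477 lower over all genes. The median log2 ratio of replicate 1 over replicate 2 was -0.002 over the members and -0.006 over all genes, and the median absolute ratio 0.12 and 0.16.

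The member with the largest difference, Phf1 (chr17:26933052-26937908), had 262 counts in replicate 1 and 180 in replicate 2 (log2 0.65, 95% counting interval 0.38 to 0.94, adjusted p = 8.81e-06 by the exact binomial test). Its exons share 1370 bases with Cuta on the other strand, a gene at 134 and 143 TPM. Tet2 followed with 1913 and 1458 counts (log2 0.51, interval 0.41 to 0.60, adjusted p = 5.77e-23 by the exact binomial test), then Phc2 (log2 0.45), Cbx7 (0.42) and Dnmt3a (0.30). Lower in replicate 1 were Dnmt3b (log2 -0.32), Pcgf6 (-0.31), Pcgf2 (-0.30), Eed (-0.28), Uhrf1 (-0.24), Rbbp7 (-0.22) and Wdr5 (-0.22). Dnmt3a and Dnmt3b thus lay on opposite sides.

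Markers of cell types also differed between the libraries. All 12 neuron markers were higher in replicate 1 (median log2 0.61), and 9 of 10 markers of dividing cells were lower there (median -0.21). Of the neural progenitor markers 8 of 10 were higher in replicate 1 (median 0.13), as were 5 of 6 macrophage markers (median 0.53) and 5 of 8 head mesenchyme markers (median 0.31). All 7 red cell markers (median -0.22) and the 4 tested surface ectoderm markers (median -0.38) were lower there, and endothelial markers were mixed, with 3 of 7 higher (median -0.04). Of the 5 germ cell markers, Nanos3 was detected, at 3.13 and 1.75 TPM (log2 0.75), and Dazl, Dppa3, Pou5f1 and Ddx4 were under 0.5 TPM. The part of these marker levels in the differences of Tet2, Phc2, Dnmt3a, Uhrf1 and the others was not tested.

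For some members TPM and counts gave different library ratios. Kmt2b had a log2 ratio of 0.50 in TPM and 0.14 in counts, Tet1 0.43 and 0.12, and Pcgf3 0.38 and 0.14. Cbx7 went the other way, with 0.27 in TPM and 0.42 in counts. Ring1 had opposite signs, 0.15 in TPM and -0.09 in counts, and its counts did not pass the test (adjusted p = 0.38 by the exact binomial test).

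**Figure D5:**
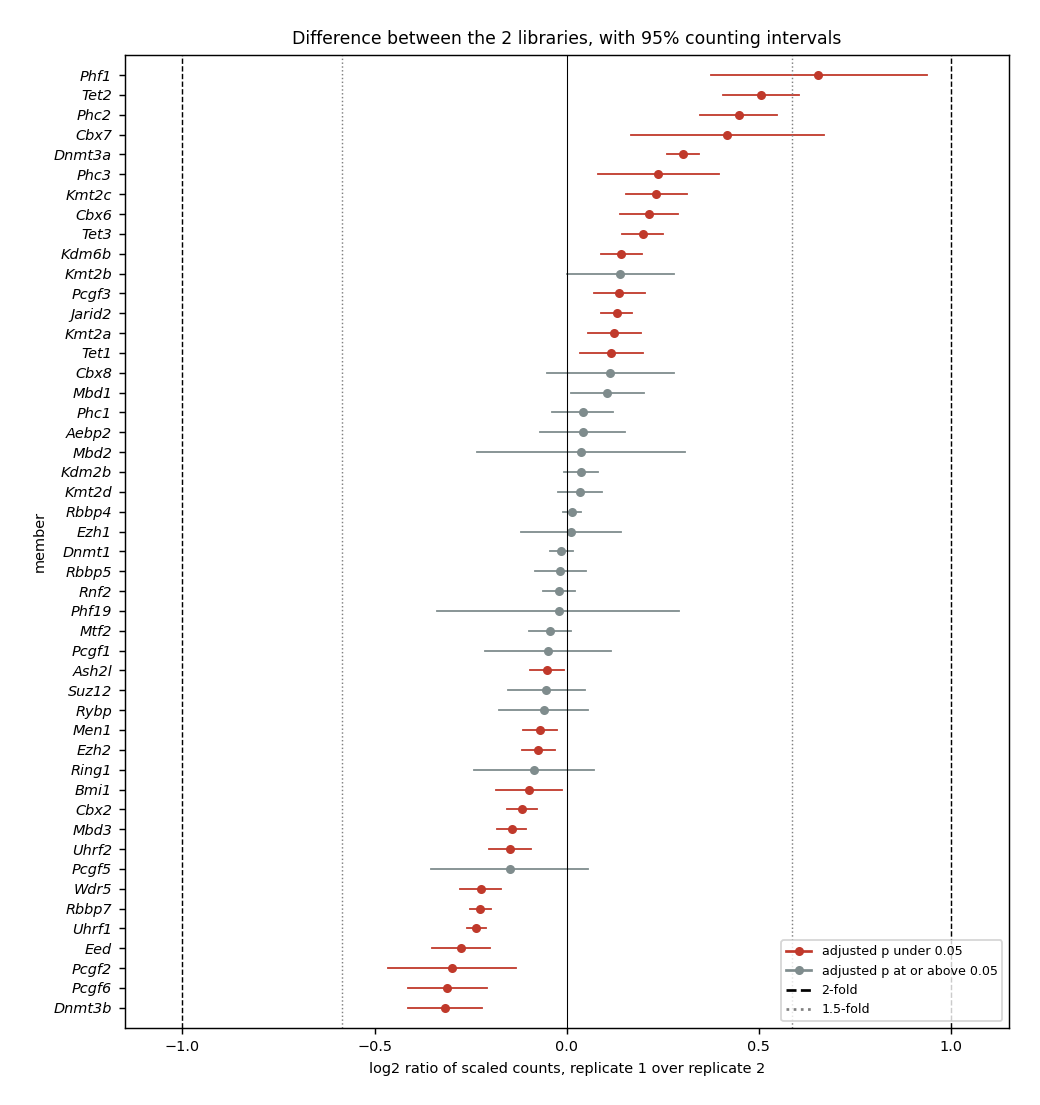
Log2 ratio of scaled counts, replicate 1 over replicate 2, for the 48 detected members, with 95% exact counting intervals; red marks an adjusted p under 0.05, dashed lines 2-fold and dotted lines 1.5-fold. Every member lies inside the 2-fold lines and Phf1 alone lies beyond a 1.5-fold line.

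Further genes of the same pathways are given from 3 lists, with leading and lowest genes by mean TPM. The median of the mean TPM was 14.6 for other Polycomb, 32.6 for other trithorax-related and 12.9 for other DNA methylation genes, beside 22.2 for the members. Of 21 other Polycomb genes, 20 were detected, led by Bap1, a deubiquitinase of histone H2A (127 and 115 TPM), Yaf2, a paralog of Rybp (95.4 and 93.7 TPM), and E2f6 (53.7 and 55.1 TPM). L3mbtl1 (0.13 and 0.20 TPM) and Sfmbt2 (1.48 and 1.67 TPM) were the lowest. All 17 other trithorax-related genes were detected, led by Psip1 (264 and 257 TPM), the COMPASS subunit Dpy30 (192 and 212 TPM) and Cxxc1 (62.4 and 64.3 TPM), with Setd1b (5.12 and 4.90 TPM) and Kdm5d (11.5 and 8.78 TPM) lowest.

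Of 17 other DNA methylation genes 14 were detected. Highest were Apex1 (369 and 403 TPM) and the glycosylase Tdg (260.04 and 245 TPM), both of base excision repair, which removes oxidised 5-methylcytosine, and Gadd45g (206 and 163 TPM). Lowest were Dnmt3c (0 and 0.05 TPM), a rodent methyltransferase known from male germ cells, and Dppa3 (0.12 and 0 TPM). None of the 3 lists had a gene called at 1.5-fold between the libraries by the exact binomial test, beside 7.61% of all genes. In these lists 14, 11 and 8 genes had an unadjusted p under 0.05, beside 8457 of the 14768 genes tested. The median log2 ratios of the lists were -0.003, 0.04 and 0.03, beside -0.006 over all genes tested. An adjusted p under 0.05 was found for 12 of 20, 11 of 17 and 8 of 14 tested genes, beside 53.3% of all genes.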

How the data were processed

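Total RNA-seq of 2 pooled midbrain libraries was used. Per the file headers, the deposited gene and transcript tables are on mm10 with GENCODE M4. Aligner, quantifier and the use of strand are each not given in the sources used here. The authors deposited expected counts, which are estimated and need not be whole (13 members were not), TPM, FPKM and isoform percent. The deposited TPM credible bounds are a signal in TPM, whose level the headers do not give. Names, positions and transcript classes came from GENCODE M21 on GRCm38, which held 42462 of 43346 gene identifiers and 343 of 346 member transcripts. A complete coding transcript is a protein-coding one with no tag for a missing end.

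From these values, levels were given as TPM. Counts were rounded, scaled by TMM (edgeR 4.0.16; R 4.3.3) and compared between libraries with an exact binomial test (scipy 1.17.1) with 0.5 added in ratios. Intervals and tests cover counting error only, and reads carry no molecular identifiers as far as the sources say. Library sizes left out 97 spike-in rows (3.39% and 3.28% of counts) and 26248 rows of other RNAs (0.0000857% and 0.0000766%). The test was checked on simulated data with counting error only, so the check does not cover any further spread between libraries. Starts less than 500 nt apart were joined.

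All 49 members are given; isoforms were named where the leading transcript held under 60% in a library or differed between libraries, and for 10 enzymes and subunits; other pathway genes were the 3 highest and 2 lowest of each list. The members and lists were chosen with earlier results of these data known. Alternatives were DESeq2 1.42.0 size factors, TPM scaling, other thresholds, posterior mean TPM, FPKM and each library alone.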

Additional observations from a re-analysis of the deposited data

How the results depend on the processing

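The number of detected members was 48 at 0.5 TPM, with posterior mean TPM and with FPKM, 42 at 5 TPM, and 47 on complete coding transcripts; it was 48 without replicate 1 and 48 without replicate 2. The median member level of 22.2 TPM ranged from 21.3 to 23.5 when a replicate was left out, and was 14.0 in FPKM, which is another unit, and 17.1 TPM on complete coding transcripts. In 14 of 15 pairs the first gene was higher, also without either replicate (14 to 14), in 13 with posterior mean TPM and in 11 on complete coding transcripts, where Rbbp4/Rbbp7 (-1.01), Tet1/Tet2 (-0.33) and Kmt2c/Kmt2d (-1.62) turned. Members whose leading transcript held 60% or more numbered 16, and 18 to 20 when a replicate was left out. At 1.5-fold 1 member was called between libraries, and none under the other settings at 2-fold. Over all genes 347 were called, against 1085 with no filter beyond 1 read, 846 with a mean of at least 10 counts and 1124 at 1.5-fold. The median member shift was 0.079 under plain TPM scaling, where Ezh2 (0.0076) and Ash2l (0.011) turned, and with them Bmi1, Cbx2, Cbx7 and Uhrf2 lost an adjusted p under 0.05, while 22 of 28 members kept direction and call; DESeq2 size factors kept all 28. Depth limits Dnmt3l and the forms of low members such as Cbx7 and Phf19. No paired analysis was possible because the libraries form 1 group.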
